A study of Danio rerio with 6 samples.

Results

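The comparison described here is that of whole zebrafish at 96 hours post fertilization (hpf) with embryos at 24 hpf. It takes in all 6 of the 6 RNA-seq libraries of the series, 3 for each stage. The libraries were made from pools of F1 offspring of wild-type AB fish. At 96 hpf there was 1 library each from offspring of control parents, of parents kept in 0.078 µM copper and of parents kept in 0.156 µM copper, and at 24 hpf there was 1 library of each of the same 3 kinds. The parents (F0, 3 months old) were in normal water or in copper for over 21 days, and all offspring, at both stages, grew in water with no added copper. Each pool held 50 to 60 embryos, which were chosen by phenotype before lysis, per the series' design text. No stage and parental group was sequenced more than once, so the 3 parental groups stand in for replicates of a stage. Libraries were paired by parental group. A stage difference was judged against its variation between parental groups, drawn toward that of transcripts of like level. The variation between parental groups also holds any effect of parental copper on the difference.

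At 24 hpf the zebrafish embryo has laid down its segments and main body plan, its heart has begun to beat, and it lies in the chorion and lives on yolk. By 96 hpf it is normally a hatched larva with working eyes, differentiated trunk muscle and a liver, pancreas and gut close to first feeding. In libraries of whole animals, the cells that contain a transcript and the amount of it per cell change together, and a change in the number of cells of a type and a change in RNA per cell cannot be told apart.

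Levels were deposited as FPKM, which are fragment numbers divided by transcript length and by the mapped fragments of the library. The files list 58002 identifiers, 57761 for transcripts and 241 for genes of Ensembl. Sums of FPKM were 476499 to 491171 in the libraries of 96 hpf and 553252 to 562987 in those of 24 hpf, so the deposited values were not scaled to a common sum. The number of fragments behind a value is unknown. Transcript IDs are not paired with genes in the files or in the gene tables used here. A symbol was found for 8 of the gene IDs, the highest of which stood at 0.282 FPKM. None of these symbols was among the 170 genes in 17 lists of tissue and pathway markers, so the lists had 0 members to describe. The stage of the libraries could for this reason not be checked against marker genes. Results are given by transcript ID, with no gene name or function.

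Most of the transcripts that passed a filter on level differed between the stages. A level of 1 FPKM or more in at least 3 of the 6 libraries was found for 25876 of the 58002 identifiers (44.6%). Of these, 18096 (69.9%) passed an adjusted p of 0.05, by limma on log2(FPKM + 1) with parental group as a block and Benjamini-Hochberg adjustment over all 25876. Of those tested, 9852 (38.1%) were higher at 96 hpf and 8244 (31.9%) were lower. All 18096 moved the same way in each of the 3 parental groups, as did 82.3% of all tested and 41.0% of the 7780 not called. Opposite changes widen the error, so the agreement among called transcripts is largely a result of the call. The 3 libraries of 96 hpf lay wholly above those of 24 hpf for 10569 transcripts (40.8%) and wholly below them for 9040 (34.9%), 75.8% in all. Without adjustment, 18842 had p under 0.05. With no filter on low values, 17687 of the 53405 identifiers above 0 in at least 1 library were called (33.1%), so the share called depends on the filter. The fit has 2 residual degrees of freedom per transcript and gains 2.23 from the prior. A single transcript taken alone could not reach p = 0.05 by an exact two-sided permutation test, since the smallest p is 0.25 for 3 pairs and 0.1 for 3 libraries against 3.

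**Figure D1:**
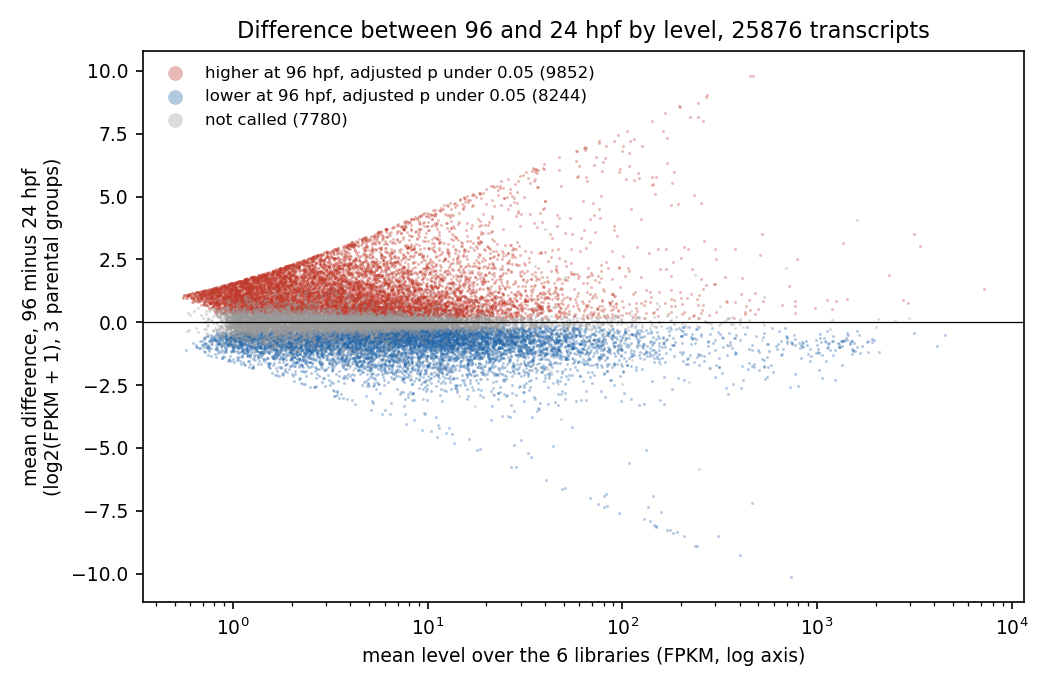
Each point is 1 of 25876 transcripts, with its mean level over the 6 libraries (FPKM, log axis) across and the mean difference between 96 and 24 hpf over 3 parental groups (log2(FPKM + 1)) upward. The 9852 transcripts called higher lie above 0 and the 8244 called lower lie below it, and the highest points reach 9.81 against -10.15 for the lowest. The 7780 not called lie mostly near 0 but overlap the called ones. Of their absolute differences 95% are at most 0.714, and the largest is 5.82.

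Many called differences were small. Among the 9852 higher transcripts, 4493 had a mean difference under 2-fold on the log2(FPKM + 1) scale, and among the 8244 lower ones 5503 did. On FPKM themselves the fold of low transcripts is larger, as the pseudocount of 1 pulls them together. The median difference was 1.08 on the log2(FPKM + 1) scale for transcripts called higher and -0.78 for those called lower. The smallest called differences were 0.15 and -0.15. The standard error of the difference had a median of 0.10 over all transcripts, with 90% of transcripts between 0.0564 and 0.304. Of the 7780 transcripts not called, 6323 had a 95% interval that lay wholly within 2-fold, and for the other 1457 the interval reached past 2-fold, so that a difference of that size is not excluded for them.

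Large rises outnumbered large falls in the table as a whole. At least 2-fold apart in every one of the 3 parental groups were 4387 transcripts in the higher direction (17%) and 1902 in the lower (7.35%), and all of them were called. At 4-fold the numbers were 1278 higher and 280 lower. At 8-fold they were 434 higher and 73 lower. The transcripts 8-fold higher held 7.40% to 7.85% of all FPKM in the libraries of 96 hpf, against 0.170% to 0.215% in those of 24 hpf. The transcripts 8-fold lower held 0.0269% to 0.0303% of all FPKM at 96 hpf, against 2.16% to 2.47% at 24 hpf. These shares describe transcripts chosen by the same values. When the libraries were rescaled to a common sum of 1000000, the numbers at 8-fold were 797 higher and 88 lower, and with quantile normalization they were 389 and 78, so that the rises were the larger class under each of these scalings. At 2-fold the gap narrowed with quantile normalization, to 3155 higher and 2537 lower. It nearly closed among transcripts at 1 FPKM or more in all 6 libraries, with 1599 higher and 1490 lower at 2-fold, whereas at 8-fold 98 of these were higher and 17 lower.

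**Figure D2:**
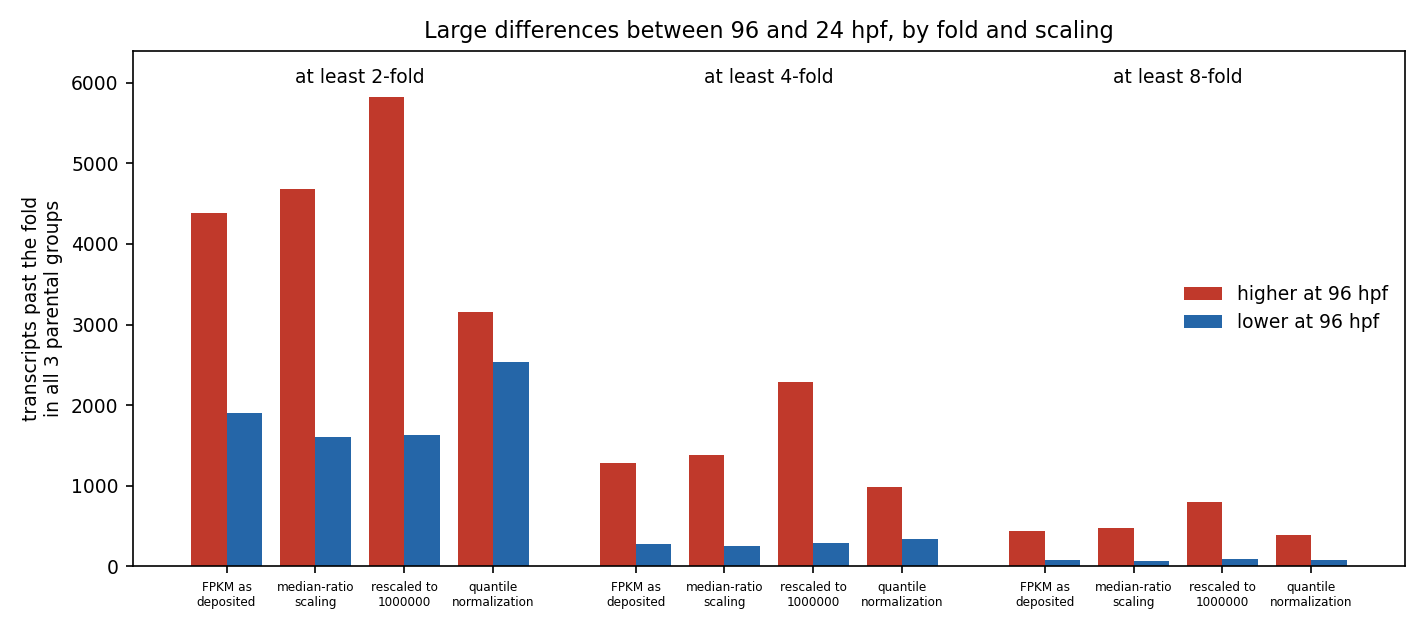
Bars give the number of transcripts past 2-fold, 4-fold and 8-fold in all 3 parental groups (upward axis), higher at 96 hpf beside lower at 96 hpf, for the FPKM as deposited and for 3 rescalings. The bar for higher transcripts is the taller of each pair, from 4387 against 1902 at 2-fold to 434 against 73 at 8-fold in the deposited FPKM.

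The split between higher and lower calls over the whole table depended on how the libraries were scaled. As deposited, 54.4% of the called transcripts were higher at 96 hpf. Rescaling to a common sum gave 11289 higher and 6596 lower calls (63.1% higher), and quantile normalization gave 8135 higher and 10032 lower calls (44.8% higher). The median difference over all transcripts, 0.05 as deposited, was 0.23 and -0.13 under these scalings, on the log2 scale. Differences in single transcripts are to be read against this shift. Under the deposited scale and 3 rescalings alike, 7889 transcripts were called higher and 6545 lower, which is 80.1% and 79.4% of the calls made on the deposited values. Only 9 transcripts were called in opposite directions by different scalings, and none of these differed by more than 0.53 as deposited.

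The direction of the difference varied with the level of the transcript. Of transcripts with a mean level under 2 FPKM, 3593 were called higher at 96 hpf and 1373 lower, so that 72.4% of the calls were rises. The share of rises was 61.7% between 2 and 5 FPKM, 43.9% between 5 and 20 FPKM, 30.8% between 20 and 100 FPKM and 23.8% at 100 FPKM and over, where 107 were called higher and 342 lower. Calls at 20 FPKM and over were mostly falls under every scaling tried. Calls under 2 FPKM were mostly rises under every scaling tried, though by a small margin with quantile normalization (51.2% rises, 2464 higher and 2350 lower). With that scaling the median difference over all transcripts under 2 FPKM, called or not, was -0.0133 on the log2 scale. Between these classes the majority depended on the scaling: between 2 and 5 FPKM, 45.8% of the calls were rises with quantile normalization, and between 5 and 20 FPKM, 55.1% were rises after rescaling to a common sum. The filter also bears on the lowest classes. It let in 3513 transcripts that reached 1 FPKM in all libraries of 96 hpf and none of 24 hpf, of which 3485 were called, and 884 with the opposite pattern, of which 862 were called, and such transcripts had to differ. Among the 17817 transcripts at 1 FPKM or more in all 6 libraries, 12036 were called, 5315 higher and 6721 lower. Refitted alone, these gave 55.1% rises under 2 FPKM and 24.1% at 100 FPKM and over. The median standard error was 0.127 under 2 FPKM, 0.110 between 2 and 5 FPKM, 0.0815 between 5 and 20 FPKM, 0.0639 between 20 and 100 FPKM and 0.0667 at 100 FPKM and over.

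**Figure D3:**
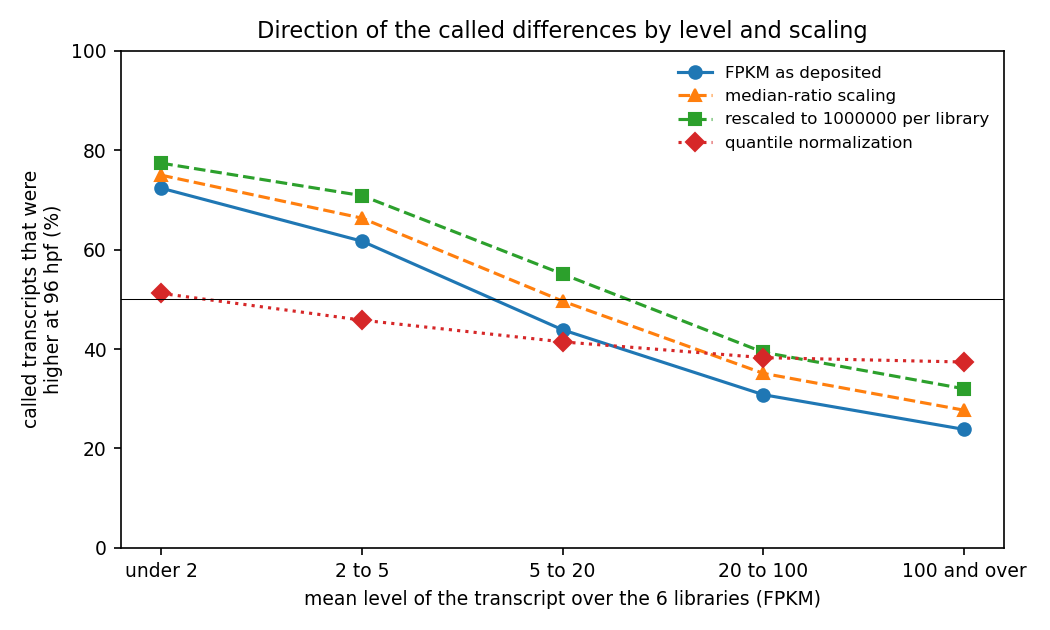
The share of called transcripts that were higher at 96 hpf (percent, upward axis) is plotted against 5 classes of mean level (FPKM, averaged on the log2(FPKM + 1) scale over the 6 libraries) for the deposited FPKM and 3 rescalings. The share falls with level in every line, from 72.4% to 23.8% as deposited and from 51.2% to 37.4% with quantile normalization.

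Below, values of single transcripts are FPKM in offspring of control, 0.078 µM and 0.156 µM parents, in that order. The highest level at 96 hpf was that of ENSDART00000158825, at 9469, 10289 and 11315 FPKM at 96 hpf, against 4491, 4063 and 3849 FPKM at 24 hpf. It was also among the most abundant transcripts of 24 hpf. It was higher at 96 hpf in each parental group, by a mean of 1.32 on the log2(FPKM + 1) scale (SE 0.13, adjusted p = 0.00135, limma).

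ENSDART00000010144 had 5885, 5839 and 6331 FPKM at 96 hpf, against 783, 795 and 646 FPKM at 24 hpf. ENSDART00000055062 had 5490.3, 5538 and 6469 FPKM at 96 hpf, against 563, 582 and 389.7 FPKM at 24 hpf. In both, the stages were far apart and the mean level at 96 hpf was 8.12 and 11.4 times that at 24 hpf. In ENSDART00000055062 the 0.156 µM pair had the highest value at 96 hpf and the lowest at 24 hpf, and its log2 differences were 3.28, 3.25 and 4.05. ENSDART00000015732 was also higher at 96 hpf, with 3529, 3518 and 3971 FPKM, against 1083, 1002 and 921 FPKM at 24 hpf. ENSDART00000075465 had 3849, 3584 and 3645 FPKM at 96 hpf, against 2356, 2173 and 1943 FPKM at 24 hpf, a smaller rise of 0.78 on the log2 scale (SE 0.0846, adjusted p = 0.00181, limma). All 5 of the most abundant transcripts of 96 hpf thus already stood at 389.7 FPKM or more in every library of 24 hpf.

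Of the 5 most abundant transcripts of 24 hpf, the 4 other than ENSDART00000158825 were lower at 96 hpf. The next in rank, ENSDART00000170044, was not called (adjusted p = 0.113, limma). ENSDART00000023156 had 3476, 3745 and 3976 FPKM at 96 hpf, against 5351, 5248 and 5382 FPKM at 24 hpf. ENSDART00000012644 had 3059.8, 2700.3 and 2743 FPKM at 96 hpf, against 5664, 5534 and 5236 FPKM at 24 hpf. ENSDART00000172555 had 1251, 1255 and 1267.5 FPKM at 96 hpf, against 3008, 2924 and 2742 FPKM at 24 hpf. The stages did not overlap in any of them, and the mean log2 differences were -0.52 (SE 0.0892, adjusted p = 0.00745), -0.95 (SE 0.0837, adjusted p = 0.00100) and -1.20 (SE 0.0728, adjusted p = 4.13e-04), by limma. The call for ENSDART00000023156 was lost without the 0.078 µM pair, with an adjusted p of 0.104 (limma). ENSDART00000012050 had 2391, 2975 and 2807 FPKM at 96 hpf, against 3644, 3457 and 3694 FPKM at 24 hpf. Its fall of 0.41 on the log2 scale had an adjusted p of 0.0270 (limma), which was 0.0984 after rescaling to a common sum and between 0.0663 and 0.0942 when 1 parental group was left out. With no filter on low values, 5 of the 9 most abundant transcripts named here lost their call, with adjusted p of 0.164 to 0.486 (limma): ENSDART00000158825, ENSDART00000075465, ENSDART00000023156, ENSDART00000012644 and ENSDART00000012050.

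Over a wider set of abundant transcripts, 386 had at least 100 FPKM in all 6 libraries. Of these, 252 were called lower at 96 hpf (65.3%, against 31.9% of all tested), 72 were called higher (18.7%, against 38.1%) and 62 were not called. At least 2-fold lower in all 3 parental groups were 78 of the 386, where 7.35% of all tested were. At least 2-fold higher were 18, where 17% of all tested were. The 386 had to be abundant at both stages, whereas all tested include transcripts near absent at a single stage. Among the 17817 at 1 FPKM or more in all 6 libraries, 37.7% were called lower and 29.8% higher. Of those 17817, 1490 were at least 2-fold lower in all 3 parental groups and 1599 at least 2-fold higher. Against this closer base the excess of called falls among the 386 remained but was smaller. The calls for the 386 were made on the deposited scale only. Among the 100 highest transcripts of each library, 92 were shared by the 3 libraries of 96 hpf, 94 by the 3 libraries of 24 hpf and 69 by all 6. The most abundant part of the transcriptome was thus largely common to both stages, with 17 transcripts among the 100 highest in all libraries of 96 hpf and none of 24 hpf, and 16 with the opposite pattern.

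The 10 largest called rises were of transcripts near 0 at 24 hpf. In the libraries of 96 hpf their values ranged over 301 to 985 FPKM, against 0 to 1.01 FPKM in those of 24 hpf. ENSDART00000027000 came first, with 953, 906 and 954 FPKM at 96 hpf, against 0.0243, 0.120 and 0 FPKM at 24 hpf. It was higher by 9.81 on the log2(FPKM + 1) scale (SE 0.0688, adjusted p = 2.01e-05, limma). ENSDART00000067160 had 985, 867 and 869.6 FPKM at 96 hpf, against 0.0418, 0.0207 and 0 FPKM at 24 hpf, and had the smallest unadjusted p among transcripts that rose. The pseudocount of 1 bounds such differences, since values well under 1 FPKM are all read as close to 0.

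ENSDART00000037346 and ENSDART00000149466 followed a like course. ENSDART00000037346 had 636, 538 and 466 FPKM at 96 hpf, against 0, 0 and 0.0892 FPKM at 24 hpf, and ENSDART00000149466 had 627, 536 and 458 FPKM at 96 hpf, against 0.118, 0.0469 and 0.0683 FPKM at 24 hpf. In both, the 96 hpf level was highest in offspring of control parents and lowest in those of 0.156 µM parents. ENSDART00000170632 showed the same order with smaller steps, at 530.0, 486 and 457 FPKM at 96 hpf, against 0.289, 0.0954 and 0.0929 FPKM at 24 hpf. With 1 library per parental group and stage, these orders were not tested.

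ENSDART00000065940 was among the more even of the 10, with 393, 381 and 399.7 FPKM at 96 hpf, against 3.24e-05, 0.0433 and 1.74e-05 FPKM at 24 hpf. Its 3 log2 differences, 8.62, 8.52 and 8.65, lay within 0.129 of each other, and those of ENSDART00000170632 within 0.109. ENSDART00000101147 was the least even, at 428, 539 and 359 FPKM at 96 hpf, against 0.973, 0.786 and 0.00062 FPKM at 24 hpf, with differences that spanned 0.725. ENSDART00000145610 had 301, 349.6 and 342 FPKM at 96 hpf, against 0, 0 and 0.0929 FPKM at 24 hpf. ENSDART00000002046 and ENSDART00000063125 complete the 10, with mean levels of 396 and 487 FPKM at 96 hpf, against 0.0535 and 0.675 FPKM at 24 hpf. At 96 hpf ENSDART00000002046 had 460, 373 and 356 FPKM and ENSDART00000063125 had 584, 492 and 384 FPKM. Both were thus also highest in offspring of control parents and lowest in those of 0.156 µM parents, which was not tested. The remaining transcripts of the 10 did not have this order, and ENSDART00000145610 was lowest in offspring of control parents. The order was noticed after the values were seen.

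**Figure D4:**
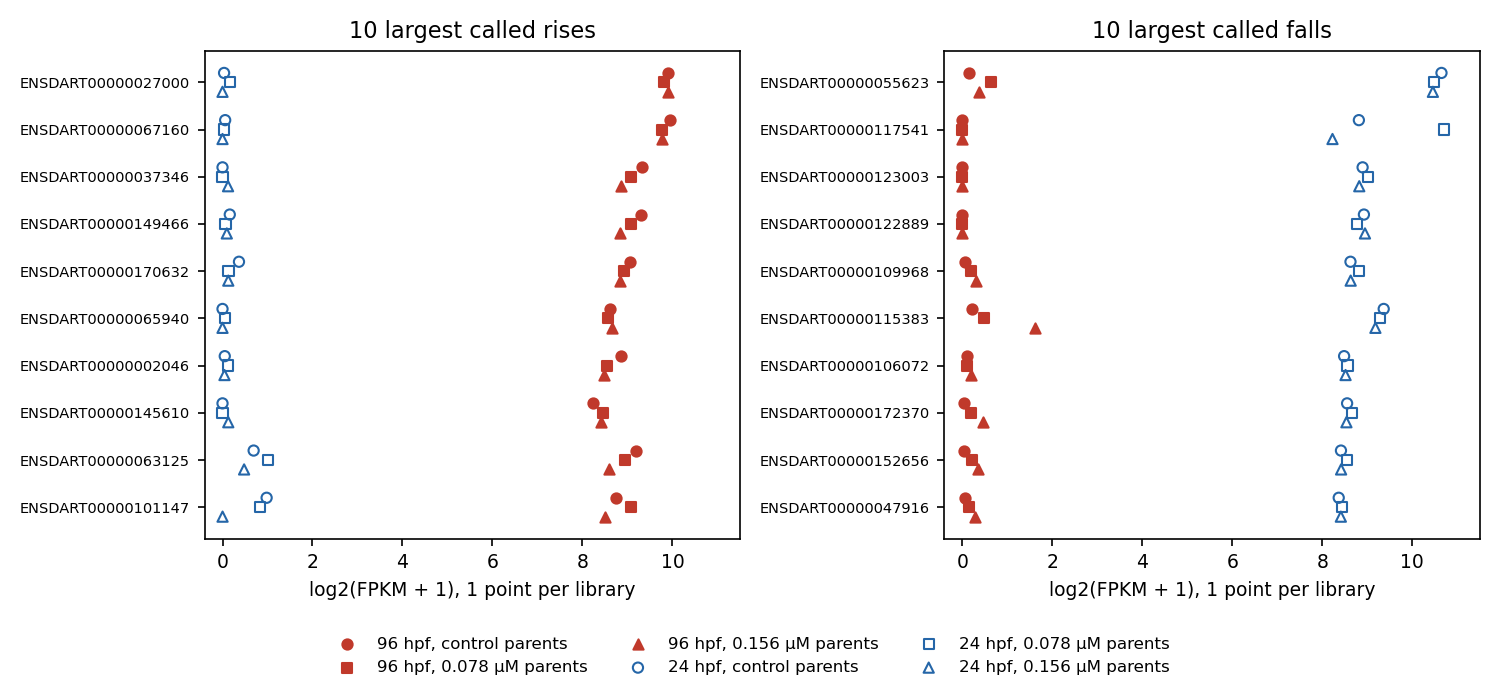
Each point is 1 library's log2(FPKM + 1) (horizontal axis) for the 10 largest called rises (left) and the 10 largest called falls (right), with filled symbols for 96 hpf, open symbols for 24 hpf and a symbol shape for each parental group. In every one of the 20 transcripts the 2 stages are separate, and the widest scatter within a stage is that of ENSDART00000117541 at 24 hpf, from 299 to 1664 FPKM.

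The 10 largest called falls were of transcripts between 299 and 1664 FPKM at 24 hpf and at no more than 2.07 FPKM in any library of 96 hpf. ENSDART00000055623 had 0.101, 0.564 and 0.283 FPKM at 96 hpf, against 1605, 1425 and 1406 FPKM at 24 hpf. It was lower at 96 hpf by a mean of -10.15 on the log2(FPKM + 1) scale (SE 0.143, adjusted p = 5.01e-05, limma), the largest difference in the table in either direction. ENSDART00000106072 had 0.0697, 0.0730 and 0.145 FPKM at 96 hpf, against 357, 376 and 365 FPKM at 24 hpf, and had the smallest unadjusted p among transcripts that fell.

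The next 3 by size were listed at 0 in all libraries of 96 hpf. These were ENSDART00000117541, with 449, 1664 and 299 FPKM at 24 hpf, ENSDART00000123003, with 475, 519 and 451 FPKM, and ENSDART00000122889, with 485, 436 and 493 FPKM. The last 2 were even across the parental groups, whereas ENSDART00000117541 was more than 3 times as high in the 0.078 µM library as in either of the others. A value of 0 is not read as absence of the transcript, because estimates for single transcripts depend on how shared fragments were assigned, and no fold is given against it. Among the transcripts tested, 16 were listed at 0 in all libraries of 96 hpf and 88 in all libraries of 24 hpf.

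A group of falls shared an order of the parental groups at 96 hpf, opposite to the order given above for some of the rises. ENSDART00000109968 had 0.0375, 0.135 and 0.240 FPKM at 96 hpf, against 394, 447 and 395 FPKM at 24 hpf. ENSDART00000172370 had 0.0174, 0.141 and 0.369 FPKM at 96 hpf, against 374, 402 and 370.2 FPKM at 24 hpf. ENSDART00000115383 had 0.159, 0.402 and 2.07 FPKM at 96 hpf, against 658, 624 and 579 FPKM at 24 hpf. In these 3 the residual level at 96 hpf was lowest in offspring of control parents and highest in offspring of 0.156 µM parents. The same order held in ENSDART00000106072, ENSDART00000152656 and ENSDART00000047916, but not in ENSDART00000055623. All but 1 of these values lie under 1 FPKM, where depth is unknown and the order was not tested, and it was noticed after the values were seen. ENSDART00000158825 and ENSDART00000055062, both called higher, had the same order at 96 hpf, so it was not confined to falls. How many of all tested transcripts had either order was not computed. At 24 hpf the levels of ENSDART00000152656 were 340.3, 373 and 341 FPKM, and those of ENSDART00000047916 were 329, 345 and 339.7 FPKM.

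Going from near absence to a substantial level in every pair was rare. Under 0.1 FPKM in all libraries of 24 hpf and at 10 FPKM or more in all of 96 hpf were 72 transcripts, of which 11 had a mean of at least 100 FPKM at 96 hpf. The opposite pattern was found in 17, of which 7 had a mean of at least 100 FPKM at 24 hpf. All transcripts of both patterns were called, as such values require.

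Of the 241 gene IDs, 14 passed the filter, none of them with a symbol, and 11 were called (78.6%, against 69.9% of all identifiers tested). The highest of them, ENSDARG00000103386, had 40.8, 44.6 and 38.4 FPKM at 96 hpf, against 91.5, 92.8 and 103 FPKM at 24 hpf. It was lower at 96 hpf, by a mean of -1.20 on the log2 scale (SE 0.0854, adjusted p = 6.00e-04, limma). ENSDARG00000098415 was also lower, with 17.1, 16.7 and 15.7 FPKM at 96 hpf, against 49.6, 51.7 and 50.5 FPKM at 24 hpf. These 2 were named after their values were seen, as the highest of the class.

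Among the transcripts kept by the filter, the parental groups differed from each other far less than the stages did. Of the summed squared deviation of log2(FPKM + 1) from each transcript's mean, 87.3% lay between the stages, 6.37% between parental groups and 6.37% in the remainder, the last 2 with equal degrees of freedom. Across transcripts, which are not independent replicates, Pearson's r was 0.962 to 0.969 between libraries of 96 hpf, 0.972 to 0.975 between libraries of 24 hpf and 0.706 to 0.730 between libraries of different stages. The filter favors the stages here. It let in 3513 transcripts at 1 FPKM at 96 hpf only and 884 at 24 hpf only. A transcript at that level in a single parental group, with 2 libraries, was not kept. The shares and r were not computed without these transcripts. In the fit that gave the stage calls, the parental group terms passed an adjusted p of 0.05 for 0 of 25876 transcripts (0%, limma F-test). Without adjustment 1083 had p under 0.05, 4.19% of those tested, and the smallest adjusted p was 0.154 (limma). This test sees differences common to both stages only and rests on 2 libraries per group, so it does not show that the groups were alike.

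For most transcripts the stage differences of the 3 parental groups lay less than 1 apart on the log2(FPKM + 1) scale. The distance between the largest and the smallest of the 3 differences had a median of 0.313, and 2460 transcripts (9.51%) had a distance of at least 1. The median absolute stage difference was 0.563 to 0.793 over the classes of level, so the distance was not small beside it. At low levels the pseudocount of 1 also pulls the differences together. Among those 2460, the difference farthest from the middle one was that of the 0.156 µM pair in 930 (37.8%), of the control pair in 816 (33.2%) and of the 0.078 µM pair in 714 (29.0%). These shares were near those over all 25876 transcripts, which were 35.8%, 35.1% and 29.1% in the same order. In 204 transcripts (0.788%) one parental group was at least 2-fold higher and another at least 2-fold lower at 96 hpf, and 0 of them were called, as opposite changes widen the error.

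Among the 7927 transcripts at 10 FPKM or more in 3 or more libraries, 33 had stage differences that lay 5 or more apart on the log2 scale, and in 28 of these at least 1 library was under 0.1 FPKM. The widest was ENSDART00000134594, with 1259.6, 1108 and 0 FPKM at 96 hpf, against 0, 405 and 424 FPKM at 24 hpf. Its differences were 10.30, 1.45 and -8.73, and the stage was not called (adjusted p = 0.827, limma). ENSDART00000158206 had 0, 277 and 0 FPKM at 96 hpf, against 582, 202 and 424 FPKM at 24 hpf. In the 0.156 µM library of 24 hpf these 2 transcripts were listed at exactly the same value, 424.008 FPKM. Of transcripts at 10 FPKM or more, 1.77% to 2.90% per library shared their value with at least 1 other such transcript.

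In 2 transcripts a single library stood apart. ENSDART00000059366 had 2098, 2102 and 2457 FPKM at 96 hpf, against 1644, 1379 and 0 FPKM at 24 hpf. ENSDART00000122904 had 472, 560.2 and 562 FPKM at 96 hpf, against 1293, 1272 and 0 FPKM at 24 hpf. Both were listed at 0 in the 0.156 µM library of 24 hpf alone. Without the 0.156 µM pair, ENSDART00000059366 was called higher by 0.48 (adjusted p = 0.0243) and ENSDART00000122904 was called lower, by -1.32 (adjusted p = 0.00303), against a mean of 2.17 and no call with all 6 libraries (limma). Both transcripts were named because their differences lay far apart, and the pair left out was the one that differed. The calls without it, with 1 residual degree of freedom, thus follow largely from the choice. ENSDART00000165486 was uneven in both stages, with 19.3, 3.64 and 0.000984 FPKM at 96 hpf, against 77.4, 0.0880 and 181 FPKM at 24 hpf.

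**Figure D5:**
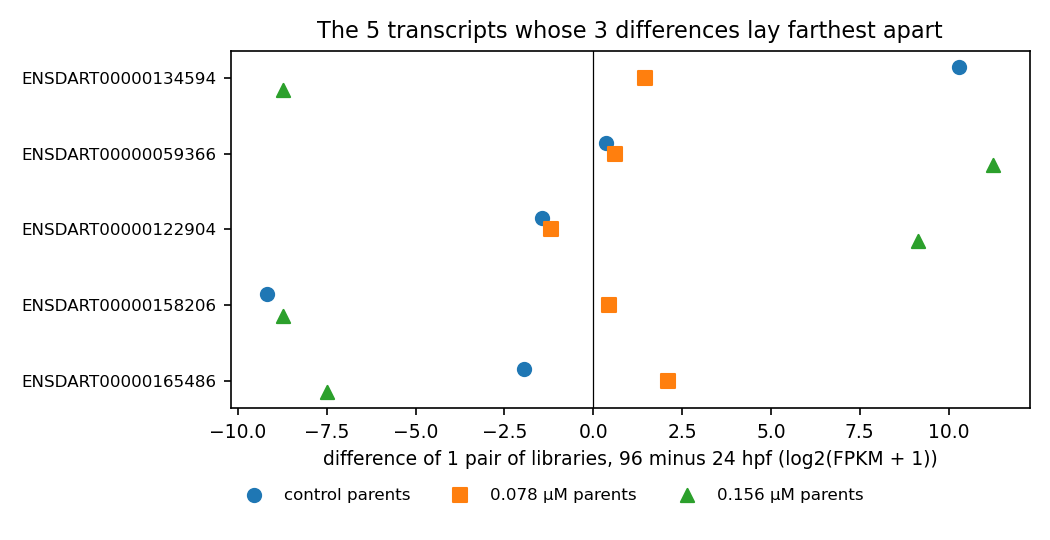
Each point is the difference between 96 and 24 hpf (log2(FPKM + 1), horizontal axis) of 1 parental group, for the 5 transcripts at 10 FPKM or more in 3 or more libraries whose 3 differences lay farthest apart. In ENSDART00000059366 and ENSDART00000122904 the 0.156 µM pair lies far to the right of the other pairs, and in ENSDART00000134594 the pairs range from -8.73 to 10.30.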

How the data were processed

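FPKM values per transcript were deposited by the authors, 1 file per library, per the file headers. The submitters' processing notes name Cufflinks 2.1.1, TopHat2 and Trimmomatic. For the genome build, the annotation and the scaling of libraries: not given in the sources used here. Since FPKM are no counts, no count test was run and no counting error is given. Depth is unknown. The files were joined on identifier, and identifiers that reached 1 FPKM in 3 or more of the 6 libraries were kept. The third highest value lay between 1 and 1.1 FPKM for 654 kept identifiers, and between 0.9 and 1 for 653 left out, the closest at 1.00009 and 0.999991 FPKM. log2(FPKM + 1), a pseudocount of 1, was fitted with limma 3.58.1 in R 4.3.3, with stage and parental group as terms and a variance trend, and two-sided p-values were adjusted by Benjamini-Hochberg. The procedure was tested on simulated data with normal noise, in which only a small part of the transcripts differed. That setting is unlike these data, so the test does not show the error rate of the calls here. Fold changes on this scale understate changes of low transcripts. It is not known whether the 3 repetitions named in the design text were pooled. The p-values rest on the spread between parental groups, drawn toward that of transcripts of like level. This spread may be technical in part. The transcripts named are the 10 largest called rises and falls, the 5 most abundant at each stage by their lowest library, the 3 smallest p-values in each direction (adjusted values are tied, so unadjusted ones gave the order), and the 5 with the largest range of the 3 differences among those at 10 FPKM or more in 3 libraries. The comparison, the filter and the lists of marker genes were chosen with earlier results of these data known. Alternatives were another pseudocount, filter, variance model, scaling, no block, and leaving out each parental group. Testing against a 2-fold difference and leaving out transcripts listed at 0 were chosen after seeing the data.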

Additional observations from a re-analysis of the deposited data

Results flagged for a closer look

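In 3 of the transcripts named, some parental groups were at least 2-fold higher and others at least 2-fold lower at 96 hpf. These are ENSDART00000134594, ENSDART00000122904 and ENSDART00000165486, whose differences spanned 19.0, 10.6 and 9.60 on the log2(FPKM + 1) scale. Each rests on values listed at 0 or under 0.1 FPKM in at least 1 library. With 1 pair of libraries per parental group the difference between groups was not tested, and the part of the estimates near 0 in these results was not tested.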

How the results depend on the processing

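Only the 3 rescalings could reverse the direction of a call, since all 18096 moved the same way in each of the 3 parental groups. Of the 18096, 30 had the other sign after rescaling to a common sum and 235 with quantile normalization. With the third rescaling, by median ratios, 0 did. Under the other alternatives the calls that could be tested had to keep their direction, so that they did is no support. When every library had to reach 1 FPKM, 5480 transcripts were called higher and 6922 lower, and 3089 were at least 2-fold apart in all 3 parental groups, 1599 of them higher. With a pseudocount of 5 the 2-fold numbers were 1437 higher and 938 lower (2375 in all). With no filter on low values, 10500 were called higher and 7187 lower, and 3557 of the 18096 calls were lost. Tested against a 2-fold difference in place of 0, 3130 were called higher and 1246 lower. With 1 parental group left out, between 8505 and 8942 were called higher and between 6646 and 7344 lower, with 1 residual degree of freedom. Over the 3 fits with a group left out, ENSDART00000134594 ranged from -3.64 (without the control pair) to 5.88, ENSDART00000122904 from -1.32 (without the 0.156 µM pair) to 3.98 and ENSDART00000165486 from -4.73 to 0.0707 (without the 0.156 µM pair). Without the 0.156 µM pair ENSDART00000059366 gained a call, as did ENSDART00000158206 without the 0.078 µM pair, at -8.96 (adjusted p = 0.00171, limma). In both, the pair left out was the one farthest from the others, so these gained calls follow largely from the choice. The cause was not tested. Paired libraries did not deviate together: deviations from the stage mean had r = 0.0165 in control, 0.0404 at 0.078 µM and -0.0484 at 0.156 µM. With no replicate block, 10080 were called higher and 8507 lower, and 17671 of the 18096 calls were kept. Sums per gene were not run, since transcripts are not paired with genes. Depth is unknown and limits what can be said of values near 0.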
